A study of Arabidopsis thaliana with 6 samples.

Results

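The 8 genes described here belong to the pathway by which *A. thaliana* measures day length: *CDF1* (AT5G62430), *CDF2* (AT5G39660), *CDF3* (AT3G47500), *CDF5* (AT1G69570), *FKF1* (AT1G68050), *CO* (AT5G15840), *COL1* (AT5G15850) and *COL2* (AT3G02380). They were taken by gene identifier, 8 of the 37184 identifiers in the count tables. The rule itself used no measured value, but earlier results of these data were known when the genes were chosen. Counts of read pairs per gene were compared between 3 libraries of wild-type (WT) Col-0 and 3 libraries labelled *nol12-4*, a T-DNA insertion line (GABI-Kat GK-536B01) in *AtNOL12* (AT1G11240). *AtNOL12* codes for a nucleolar protein of pre-rRNA processing. Each library came from 14-day-old seedlings grown on MS medium with sucrose under 16 h of light and 8 h of dark. Both genotypes are in the Col-0 background and share these conditions. The mutant is represented by 1 insertion line, and whole seedlings were extracted, so leaf, root and vascular tissue are mixed in each library. The hour of harvest is not given in the sources used here.

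CDF proteins are DNA-binding repressors of the Dof zinc-finger family that keep *CO* and *FT* low. FKF1 is an F-box protein with a blue-light-sensing LOV domain that, together with GI, marks CDF proteins for degradation in the afternoon. This releases *CO*, whose B-box protein activates the florigen gene *FT* in phloem companion cells of the leaf in long days. *COL1* and *COL2* code for the closest relatives of CO. The transcripts of all these genes cycle over the day under the circadian clock, in which *CDF1*, *COL1* and *COL2* are known as genes of the early day and *FKF1* as a gene of the late day.

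Gene totals were 56627497 to 75001252 counts per library. For *AtNOL12* the WT libraries held 663, 642 and 894 counts, and the libraries labelled *nol12-4* held 1186, 770 and 2142, given, as all values by library, in the order of replicates 1, 2 and 3. The counts of the targeted gene were therefore not lower in those libraries (log2 fold change 0.82, SE 0.30, edgeR adjusted p = 0.191). Counts over the whole gene do not show whether a full-length transcript was made. The paper examined *AtNOL12* mRNA by northern blot and kept this line after another insertion line had a WT-like level. It also reports that a NOL12-GFP transgene rescued the visible phenotypes. These counts do not repeat that check, and throughout *nol12-4* is the label of a library. Among the libraries labelled *nol12-4*, replicates 1 and 2 lay 1.08 apart and replicate 3 lay 2.42 and 2.47 from them. The distance is the root mean square difference of log2 CPM over the most variable tested genes, the same set for all libraries. WT replicates 1 and 2 lay 1.23 apart, and WT replicate 3 lay 2.1 and 2.05 from them. Since *nol12-4* replicate 3 stood apart at the genes described here as well, the edgeR test of each of these genes is given with and without it. The same holds for the edgeR calls in most lists set beside them, but not for every single gene of those lists.

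The positions that follow are those of the TAIR10.1 assembly (RefSeq annotation). *CDF1* is on the minus strand of chromosome 5 (25069093 to 25071111) and *CDF2* on the plus strand of chromosome 5 (15878698 to 15881537). *CDF3* is on the minus strand of chromosome 3 (17503883 to 17506124), *CDF5* on the minus strand of chromosome 1 (26161528 to 26163715) and *FKF1* on the plus strand of chromosome 1 (25508639 to 25510907). *CO* (5170162 to 5173085) and *COL1* (5176091 to 5177897) are neighbours on the minus strand of chromosome 5 with 3005 bases between them, while *COL2* is on the minus strand of chromosome 3 (487069 to 489467).

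The 250 bases before each annotated gene start were searched on both strands for motifs that factors of the clock and of this pathway are known to bind. The windows of *CO*, *COL1* and *COL2* overlap other annotated genes, and those of the CDF genes and *FKF1* do not. The evening element AAAATATCT, through which CCA1 and its relatives act on genes of the late day, was in the windows of *FKF1* and *COL2*, 2 of the 8 genes, against 2.36% of 27443 windows of all genes. The pair is shown because these genes lay farthest from WT of the 8 in *nol12-4* replicates 1 and 2, in opposite directions. Each is printed 5′ to 3′ with 10 bases on either side and the element in capitals, in the orientation that reads AAAATATCT.
FKF1, chr1:25508443-25508471, minus strand, 186 to 178 bases before the start: atattccgagAAAATATCTagcctactca
COL2, chr3:489638-489666, minus strand, 189 to 181 bases before the start: ataagttaccAAAATATCTtcttgttact

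In *FKF1*, which is on the plus strand, the element therefore lies on the strand opposite to the gene, and in *COL2* on the strand of the gene. The CCA1-binding site AAAAATCT was in the window of *CDF5* and of no other of the 8 genes (6.69% of all windows hold it), and the G-box CACGTG, a site of bHLH and bZIP factors, was in that of *CDF2* alone (6.49% of all windows). The Dof core AAAG, to which CDF proteins bind, was in the windows of all 8 genes, but it was also in 98% of all windows. *CDF2* had 15 such cores, *COL2* had 2, and the other 6 genes had 4 to 7, with a median of 4 over all windows. The windows of *CDF5* and *CDF2* are shown since each holds a motif that the other CDF genes lack. They are printed in the direction of the gene, with the CCA1-binding site of *CDF5* (200 to 193 bases before the start) and the G-box of *CDF2* (77 to 72 bases before it) in capitals. A match of letters does not show that a factor was bound.
CDF5, chr1:26163716-26163965, minus strand: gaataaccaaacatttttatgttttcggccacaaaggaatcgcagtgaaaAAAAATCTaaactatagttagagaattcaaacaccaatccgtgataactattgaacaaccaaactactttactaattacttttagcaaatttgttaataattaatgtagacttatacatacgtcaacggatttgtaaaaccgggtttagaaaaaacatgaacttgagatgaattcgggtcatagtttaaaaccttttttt
CDF2, chr5:15878448-15878697, plus strand: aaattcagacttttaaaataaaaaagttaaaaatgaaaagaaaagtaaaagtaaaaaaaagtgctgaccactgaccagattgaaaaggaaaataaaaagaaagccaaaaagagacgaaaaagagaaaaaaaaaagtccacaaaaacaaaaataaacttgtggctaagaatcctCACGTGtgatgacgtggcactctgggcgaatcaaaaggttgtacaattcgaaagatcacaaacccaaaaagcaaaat

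The 4 CDF genes, the repressors of the pathway, had more counts in *nol12-4* replicates 1 and 2 than in any WT library. *CDF1* had 204, 157 and 85 counts in WT and 1141, 757 and 239 counts in *nol12-4*. All 3 *nol12-4* libraries lay above all 3 WT libraries for this gene, the only gene of the 8 with this pattern. Normalised for library size this was 2.16 ± 0.819 CPM in WT and 10.5 ± 6.55 CPM in *nol12-4* (CPM, counts per 1000000 of the TMM-scaled library, mean ± SD, n = 3). In *nol12-4* replicates 1 and 2 *CDF1* was at 7.16 and 5.98 times the WT mean, and in replicate 3 at 1.43 times.

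*CDF2* had 696, 537 and 488 counts in WT and 1491, 1369 and 500 counts in *nol12-4*. At 9.80, 8.04 and 7.28 CPM in WT against 20.3, 23.4 and 6.47 CPM in *nol12-4*, it had the smallest differences of the CDF genes, and *nol12-4* replicate 3 lay under all WT libraries. *CDF3* had 245, 175 and 351 counts in WT and 1648, 2284 and 163 counts in *nol12-4*. It had the widest spread of the CDF genes between *nol12-4* libraries, with 22.4 and 39 CPM in replicates 1 and 2 and 2.11 CPM in replicate 3, against 3.77 ± 1.34 CPM in WT. *CDF5* had 358, 185 and 295 counts in WT and 1190, 802 and 128 counts in *nol12-4*. Its level was 3.97 and 3.37 times the WT mean in *nol12-4* replicates 1 and 2 and 0.407 times in replicate 3, the lowest value of the 4 genes in that library relative to WT.

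*FKF1*, whose protein acts against the CDF proteins, went the other way. It had 2364, 2531 and 4672 counts in WT and 69, 53 and 2524 counts in *nol12-4*. Replicates 1 and 2 of *nol12-4* were at 0.938 and 0.906 CPM, while the WT mean (47 ± 19.8 CPM) was 50.1 and 51.8 times these values. Replicate 3, at 32.6 CPM, lay just under the lowest WT library at 33.3 CPM, so the genotypes did not overlap in TMM-scaled CPM. By raw count they did overlap. Replicate 3 had 2524 counts in a library of 71427918, and WT replicate 1 had 2364 in a larger library of 75001252. The lack of overlap at *FKF1* thus depends on the scaling, and 1 library decided most of the spread. The exact Poisson intervals (95%) of the 2 low counts were 53.7 to 87.3 and 39.7 to 69.3 counts, far from the counts of the other 4 libraries.

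*CO*, the activator at the centre of the pathway, had 131, 162 and 99 counts in WT and 18, 20 and 72 counts in *nol12-4*. The 3 *nol12-4* libraries lay below the 3 WT libraries, at 0.506 ± 0.372 CPM against 1.92 ± 0.479 CPM. Counting error was wide at this depth, with exact Poisson intervals (95%) of 10.7 to 28.4, 12.2 to 30.9 and 56.3 to 90.7 counts in *nol12-4* replicates 1, 2 and 3. Replicate 3 was again the nearest to WT, with the WT mean at 2.06 times its value against 7.83 and 5.6 times for replicates 1 and 2.

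The relatives of *CO* lay on the other side of WT from *CO* in *nol12-4* replicates 1 and 2. *COL1* had 556, 526 and 599 counts in WT and 3162, 3345 and 612 counts in *nol12-4*. The WT libraries were close together for this gene (8.21 ± 0.623 CPM), replicates 1 and 2 of *nol12-4* were at 43 and 57.2 CPM, and replicate 3 was inside the WT range at 7.92 CPM. *COL2* had 134, 115 and 89 counts in WT and 3433, 2938 and 73 counts in *nol12-4*. It was at 28.3 and 30.5 times the WT mean in *nol12-4* replicates 1 and 2 and at 0.574 times in replicate 3. In whole seedlings a difference in these values, up or down, can come from the number of cells of a type or from the RNA per cell, which cannot be told apart.

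**Figure D1:**
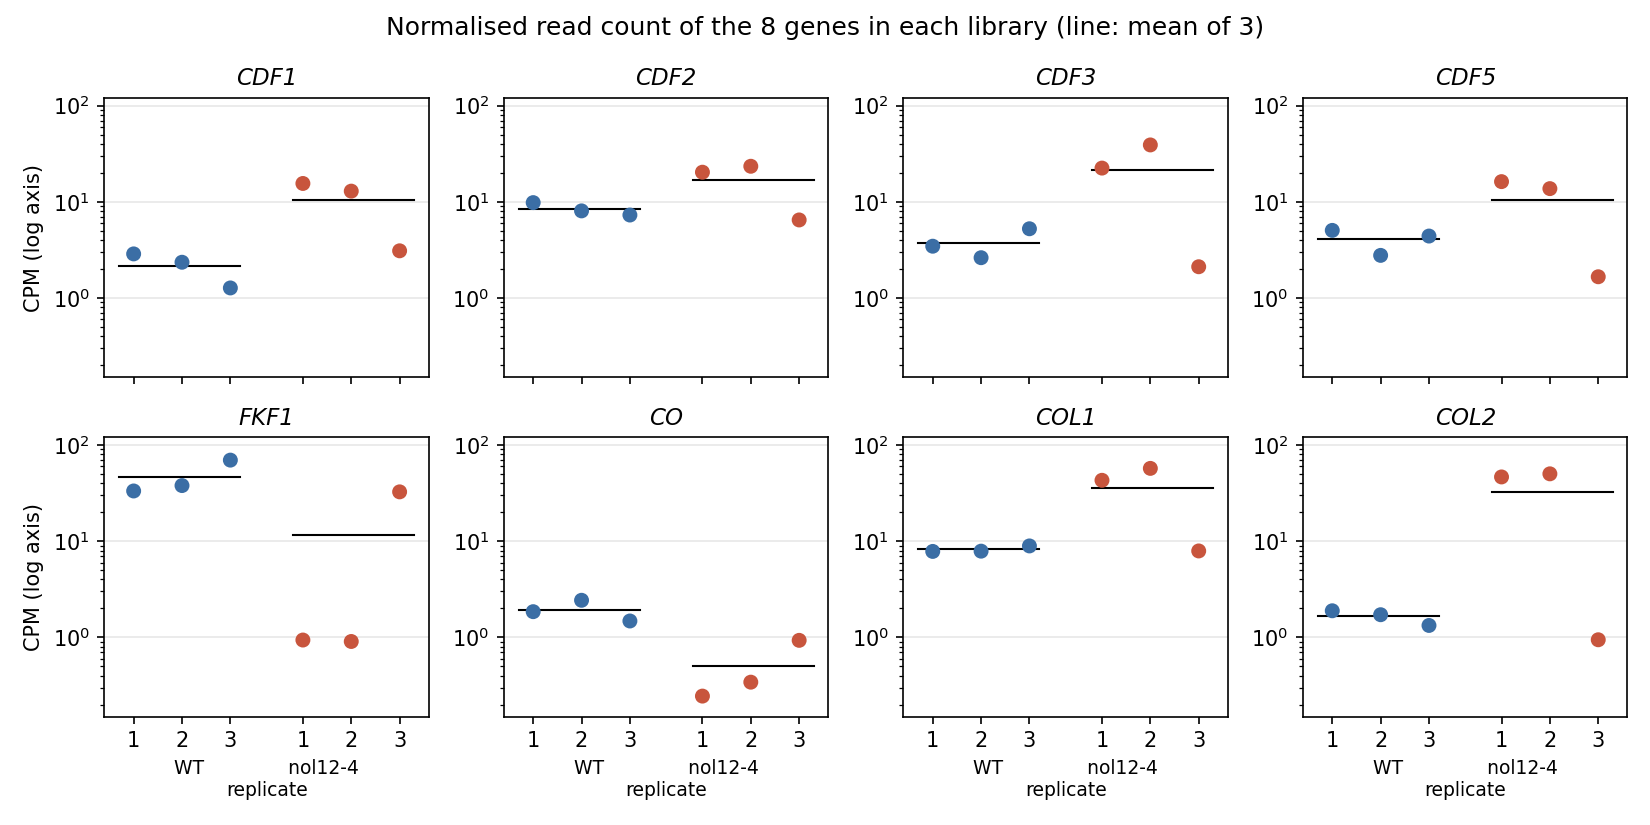
Normalised read count of the 8 genes in each library, as CPM on a log axis, with the replicate number and genotype on the x axis (blue points are WT, red points *nol12-4*, and black lines the mean of 3 libraries). *nol12-4* replicates 1 and 2 lie outside the WT range at all 8 genes, 6 above and 2 below, while replicate 3 lies near WT, as at *COL2* with 0.944 CPM against 1.33 to 1.89 CPM in WT.

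By library, *nol12-4* replicates 1 and 2 were above the WT range at 6 genes (the 4 CDF genes, *COL1* and *COL2*) and below it at 2 (*FKF1* and *CO*). Replicate 3 was above at 1 gene (*CDF1*), inside at 1 (*COL1*) and below at 6. It shared the direction of the other replicates at *CDF1*, *FKF1* and *CO*. The genotypes did not overlap in CPM at these 3 of the 8 genes, at *FKF1* by little and depending on the scaling. Of the 21705 tested genes 26.1% did not overlap. The spread between *nol12-4* libraries was wide for the group. On the log2 CPM scale (prior count 2) the highest and the lowest *nol12-4* library were 5.69 apart at *COL2* and 5.13 at *FKF1*, each more than at 99.9% of tested genes. The range between *nol12-4* libraries was 4.19 at *CDF3*, 3.27 at *CDF5* and 2.85 at *COL1*, and over all tested genes its median was 0.502. In WT the 8 genes ranged from 0.189 (*COL1*) to 1.16 (*CDF1*), with a median over all tested genes of 0.496.

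With all 6 libraries, edgeR's quasi-likelihood test (Benjamini-Hochberg adjustment over all 21705 tested genes, threshold 0.05) called 0 of the 8 genes, and it called 64 genes in all, or 0.295%. At an unadjusted p under 0.05 it listed 5 of the 8 genes, 4 higher (*CDF1*, *CDF3*, *COL1* and *COL2*) and 1 lower (*CO*), against 20.0% of all tested genes. The largest estimate was that of *COL2*, with a log2 fold change of 4.31 (SE 1.18, edgeR adjusted p = 0.117). *CDF1* was at 2.28 (SE 0.59, adjusted p = 0.108), *CO* at -1.91 (SE 0.53, adjusted p = 0.12) and *COL1* at 2.13 (SE 0.61, adjusted p = 0.129). The remaining 4 genes had larger adjusted p-values. These were 0.179 for *CDF3* (2.49, SE 0.87), 0.255 for *CDF2* (1.00, SE 0.43), 0.329 for *CDF5* (1.37, SE 0.71) and 0.413 for *FKF1* (-2.03, SE 1.27). The median estimate of the 8 genes was 1.75, and that of all tested genes -0.0091.

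DESeq2, the tool of the study, called 4 of the 8 genes on the same 6 libraries, with *CDF1* (adjusted p = 0.00132), *COL1* (0.0038) and *COL2* (0.011) higher and *CO* (0.00696) lower. It called 9.42% of the 24147 genes to which it gave an adjusted p. *CDF2*, *CDF3* and *CDF5* were not called (adjusted p = 0.146, 0.11 and 0.183), and for *FKF1* it gave no p.

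The fit without *nol12-4* replicate 3 was chosen with earlier results known and leaves 2 libraries in that genotype. This library was left out partly because it stood apart at these same 8 genes. The adjusted p-values of this fit are therefore no independent support for a difference and only describe the fit. In it edgeR called all 8 genes, 6 higher and 2 lower, against 7.44% of 22033 tested genes. DESeq2 also called all 8 genes, against 15.2% of 23397. *FKF1* then had a log2 fold change of -5.67 (SE 0.44, edgeR adjusted p = 0.0029), against -2.03 with all libraries. *COL2* was at 4.87 (SE 0.20, adjusted p = 0.000432), *COL1* at 2.60 (SE 0.18, adjusted p = 0.00213) and *CO* at -2.71 (SE 0.42, adjusted p = 0.0175). Among the repressors *CDF3* was at 3.02 (SE 0.36, adjusted p = 0.00849), *CDF1* at 2.71 (SE 0.34, adjusted p = 0.00967), *CDF5* at 1.87 (SE 0.27, adjusted p = 0.0151) and *CDF2* at 1.38 (SE 0.18, adjusted p = 0.0111). With any of the other 5 libraries left out edgeR called 0 of the 8 genes, at an unadjusted p under 0.05 it listed 4 or 5, and no estimate changed sign.

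**Figure D2:**
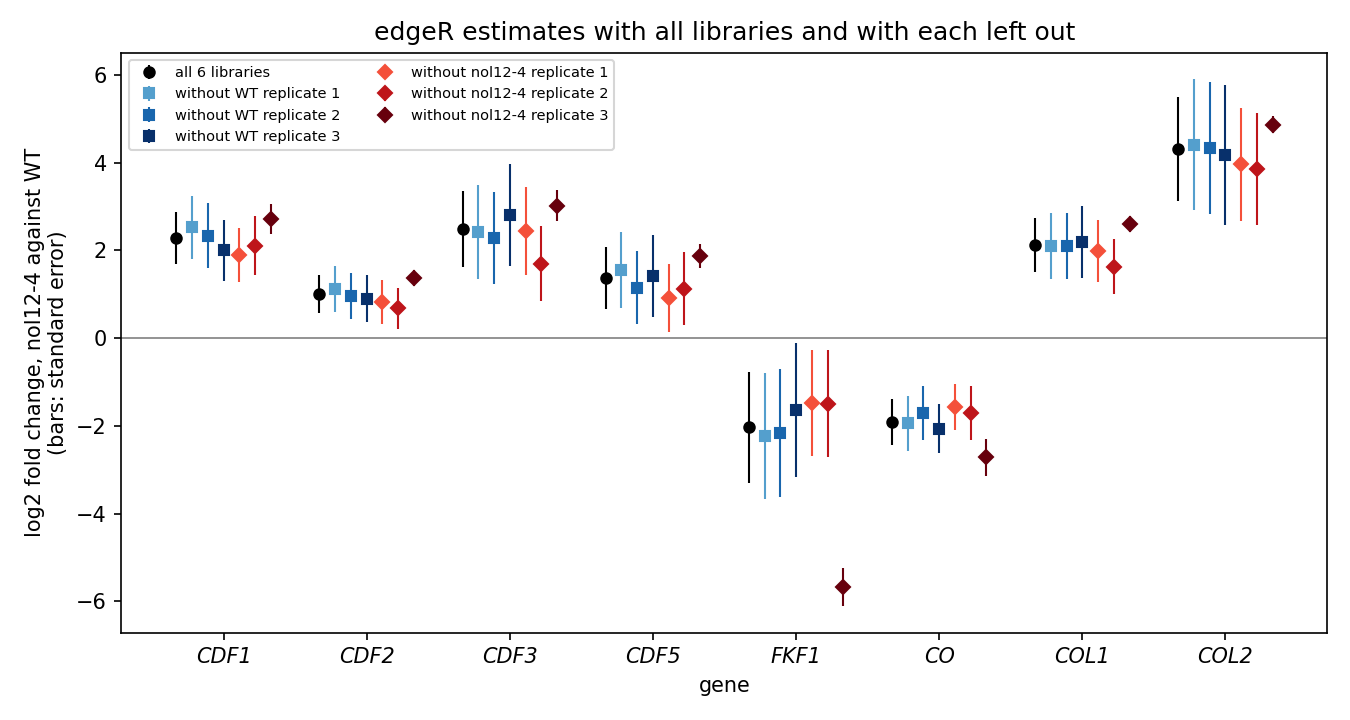
log2 fold change of *nol12-4* against WT by edgeR on the y axis for the 8 genes on the x axis, with all 6 libraries (black) and with each library left out (squares for WT, diamonds for *nol12-4*), bars showing the standard error. The estimates keep their sign in every fit, and the bars are shortest without *nol12-4* replicate 3, where *FKF1* goes from -2.03 to -5.67.

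Ratios of counts within a library do not depend on its depth, and since gene length cancels between libraries they are compared between libraries only. The ratio of *FKF1* to *CDF1* counts was 11.6, 16.1 and 55 in WT and 0.0605, 0.07 and 10.6 in *nol12-4*. It was below the WT range in all 3 *nol12-4* libraries, in replicate 3 by little. Over the sum of the 4 CDF genes the ratio was 1.57, 2.40 and 3.83 in WT and 0.0126, 0.0102 and 2.45 in *nol12-4*, so that replicate 3 lay within the WT range. The ratio of *COL2* to *CO* counts was 1.02, 0.71 and 0.899 in WT, 191 and 147 in *nol12-4* replicates 1 and 2 and 1.01 in replicate 3, again inside the WT range. The neighbours *COL1* and *CO* had ratios of 4.24, 3.25 and 6.05 in WT and 176, 167 and 8.50 in *nol12-4*.

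*CDF5* shares 1241 bases with AT1G69572, which the annotation gives as a lncRNA antisense to it, on the opposite strand. The libraries were stranded and counted by strand, so both transcripts were read apart. AT1G69572 had 444, 295 and 789 counts in WT and 57, 12 and 495 counts in *nol12-4*. It was low in the libraries in which *CDF5* was high. The ratio of *CDF5* to AT1G69572 was 0.806, 0.627 and 0.374 in WT, 20.9 and 66.8 in *nol12-4* replicates 1 and 2 and 0.259 in replicate 3. The log2 fold change of AT1G69572 was -1.59 (SE 1.03, edgeR adjusted p = 0.424) with all libraries and -3.90 (SE 0.69, adjusted p = 0.0254) without *nol12-4* replicate 3. The other 5 annotated genes that overlap one of the 8 genes on the opposite strand were not called in either fit, among them AT5G15845, which covers all 1807 bases of *COL1* and had 80, 68 and 84 counts in WT and 70, 42 and 64 in *nol12-4*.

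**Figure D3:**
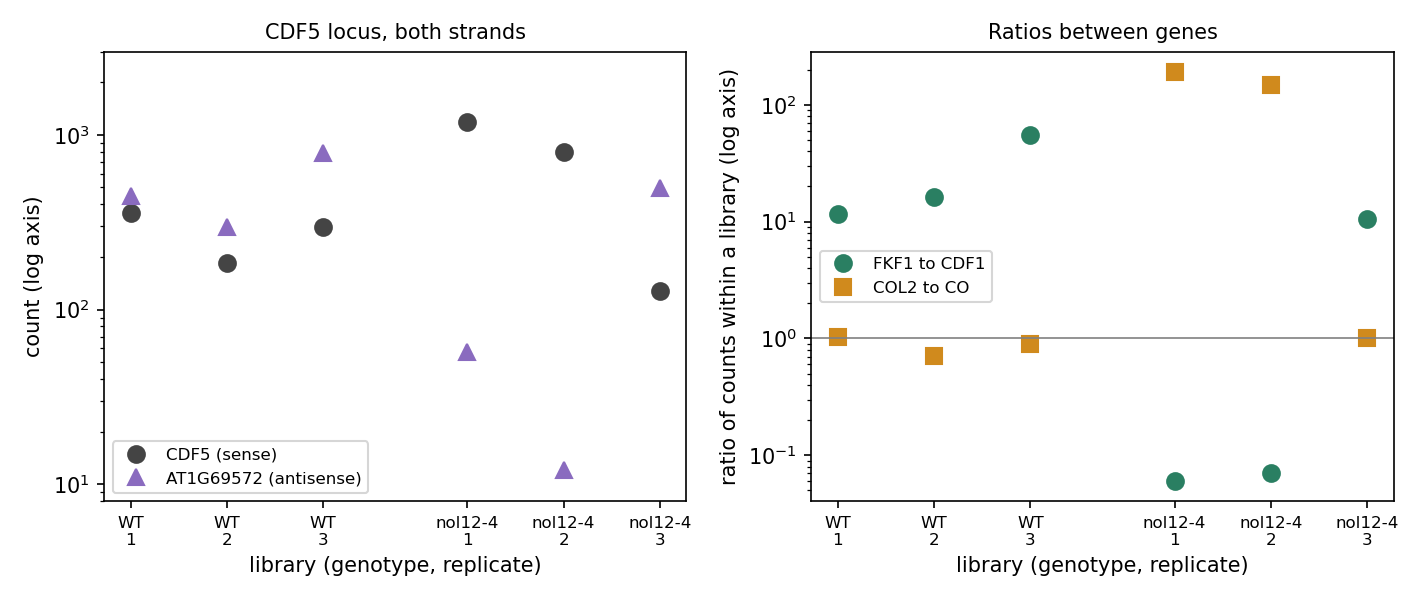
Left, counts of *CDF5* and of its antisense gene AT1G69572 in each library on a log axis; right, ratios of *FKF1* to *CDF1* and of *COL2* to *CO* counts in each library on a log axis, with a line at 1. In *nol12-4* replicates 1 and 2 the counts of *CDF5* (1190 and 802) lie above those of AT1G69572 (57 and 12), and in the other 4 libraries below them, with no scaling by length.

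Clock genes varied in the same libraries. Their values are given because transcripts of the 8 genes are known to follow the clock. *LHY* had 80, 83 and 71 counts in WT and 4314, 2896 and 75 counts in *nol12-4*, and *CCA1*, its partner as a repressor of the late-day genes, had 78, 102 and 236 counts in WT and 7122, 5506 and 189 counts in *nol12-4*. *PRR9*, which follows them in the morning, had 61, 25 and 128 counts in WT and 1699, 1730 and 60 in *nol12-4*. *TOC1*, the evening gene, had 9237, 8389 and 9481 counts in WT and 1082, 764 and 9247 counts in *nol12-4*, and *PRR5* had 1987, 2001 and 5497 against 401, 477 and 2458. *RVE8* and *LNK1*, activators of the evening genes, had 104, 81 and 61 and 532, 507 and 938 counts in WT and 1856, 1329 and 32 and 4763, 3721 and 758 in *nol12-4*. In replicates 1 and 2 these morning genes were high and these evening genes low, and in replicate 3 they were nearer to WT, with *RVE8* the farthest of the named clock genes from its WT mean (-1.44 in log2 CPM). *PRR7*, a morning gene, did not share this pattern, with 2220, 2110 and 8135 counts in WT and 5408, 4956 and 3544 in *nol12-4*.

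Averaged over the 9 morning genes, log2 CPM lay 3.15 and 3.10 above the WT mean in *nol12-4* replicates 1 and 2 and at -0.20 in replicate 3, with WT libraries at -0.24, -0.34 and 0.58. The mean of the 8 evening genes lay at -3.26, -3.17 and -0.073 in *nol12-4* and at -0.072, -0.18 and 0.25 in WT. Of the morning genes edgeR called 0 with all libraries (6 higher at 0.05 without adjustment), DESeq2 called 5 higher (*LHY*, *CCA1*, *PRR9*, *RVE8* and *LNK1*), and without replicate 3 edgeR called 6 higher. Of the evening genes edgeR and DESeq2 called 0 (0 and 1 at 0.05 without adjustment), and without replicate 3 edgeR called 7 lower. The part of the clock genes, or of the hour of harvest, in the values of the 8 genes was not tested.

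**Figure D4:**
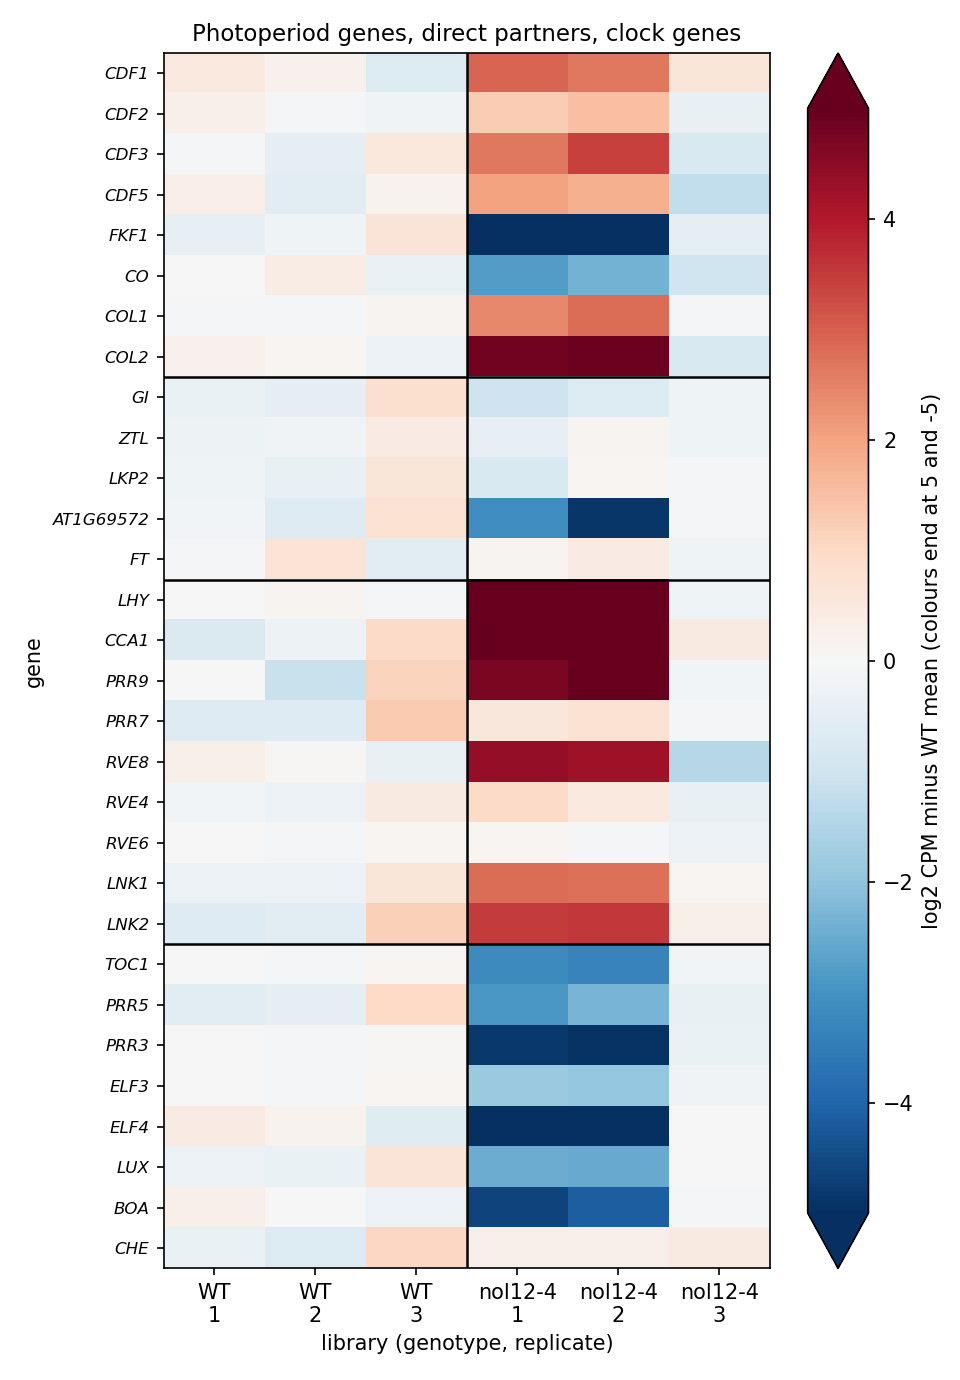
Difference of log2 CPM (prior count 2) from the WT mean for each gene (rows) in each library (columns), red above and blue below the WT mean, with colours ending at 5 and -5. The blocks are the 8 photoperiod genes, their direct partners, the 9 morning and the 8 evening clock genes, and the strongest colours are in *nol12-4* replicates 1 and 2, where *COL2* was at 4.82 and 4.92 and *FKF1* at -5.52 and -5.57, against -0.77 and -0.45 in replicate 3.

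For the other genes of the pathway, 29 of 30 listed partners were tested, edgeR called 0 of them (without adjustment, 1 was higher and 2 lower at 0.05) and their median log2 fold change was -0.041, against -0.0091 for all tested genes. *GI*, which codes for the partner of FKF1, had 3643, 3246 and 7588 counts in WT and 2361, 2402 and 4328 in *nol12-4* (log2 fold change -0.72, SE 0.37, edgeR adjusted p = 0.32). The genotypes overlapped at *GI*, and WT replicate 3 was the highest library. Without *nol12-4* replicate 3 its log2 fold change was -0.96 (SE 0.40, edgeR adjusted p = 0.2). *ZTL* and *LKP2*, which code for the F-box relatives of FKF1, had log2 fold changes of -0.17 (SE 0.23) and -0.27 (SE 0.32), and of -0.14 (SE 0.27) and -0.34 (SE 0.38) without replicate 3, not called by edgeR in either fit. In contrast to *FKF1*, *ZTL* had 1670, 1649 and 2463 counts in WT and 1525, 1805 and 1842 in *nol12-4*.

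*FT*, the target of CO and of the CDF proteins, had 76, 123 and 51 counts in WT and 92, 90 and 76 in *nol12-4*. All 3 *nol12-4* values lay inside the WT range, and the log2 fold change was 0.036 (SE 0.40, edgeR adjusted p = 0.97), or 0.18 (SE 0.44, adjusted p = 0.837) without replicate 3. *TSF*, the close relative of *FT*, had 0 counts in WT and 1, 4 and 0 in *nol12-4* and was not tested. DESeq2 called 2 of 29 partners, against 9.42% of all genes to which it gave an adjusted p. *FBH3*, which codes for a bHLH activator of *CO*, was higher with 272, 300 and 262 counts in WT and 778, 686 and 439 in *nol12-4* (DESeq2 adjusted p = 0.005, edgeR 0.0906), and its relative *FBH4* was lower with 1736, 1607 and 1636 against 1450, 932 and 1185 (DESeq2 adjusted p = 0.042, edgeR 0.119). For both the genotypes did not overlap, replicate 3 included, as at 26.1% of all tested genes. Of the 29 tested partners, 1 lay above and 3 lay below all WT libraries in every *nol12-4* library. Without *nol12-4* replicate 3 edgeR called *FBH3* higher (1.45, SE 0.18, adjusted p = 0.00954) and AT1G69572 lower, and DESeq2 called 3 partners higher and 3 lower.

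The other genes of both families did not share a common pattern. Of the 14 other *CONSTANS-LIKE* genes 12 were tested, edgeR called 0 (without adjustment, 1 higher and 2 lower at 0.05), and *COL8* and *COL15* were lower by DESeq2. *COL15* had 752, 601 and 1043 counts in WT and 121, 156 and 616 in *nol12-4*, and *COL8* had 965, 661 and 1159 against 574, 312 and 558. Named after their values were seen, *COL9* had 8433, 7214 and 5904 counts in WT and 226, 139 and 7571 in *nol12-4*, and *COL10* had 3133, 2837 and 3613 against 277, 216 and 2975. Both were low in replicates 1 and 2, as *CO* and *FKF1* were. *COL7*, also named after its values were seen, was high in these replicates, as *COL1* and *COL2* were, with 1, 0 and 65 counts in WT and 387, 769 and 24 in *nol12-4* (log2 fold change 4.25, SE 1.65, edgeR adjusted p = 0.213). Without *nol12-4* replicate 3 edgeR called 4 of the 12 lower (*COL9*, *COL10*, *COL13* and *COL15*, at -5.27, -3.65, -1.85 and -2.45) and 0 higher, and DESeq2 called 5 lower and 0 higher. Of 28 other Dof genes 20 were tested, and edgeR called 0 (without adjustment, 1 higher and 2 lower at 0.05). DESeq2 called AT1G26790 higher, with 3, 4 and 4 counts in WT and 37, 46 and 8 in *nol12-4*, and AT5G65590 lower, with 173, 172 and 278 counts against 73, 94 and 136. Without *nol12-4* replicate 3 edgeR called AT1G26790 higher (3.53, SE 0.59, adjusted p = 0.022) and *OBP2* lower (-0.82, SE 0.17, adjusted p = 0.0353), and DESeq2 called 1 higher and 3 lower. *CDF4*, which the annotation also names as a CDF gene, had 77, 51 and 88 counts in WT and 34, 44 and 143 in *nol12-4* (log2 fold change -0.041, SE 0.54). It was at 1.08, 0.764 and 1.31 CPM in WT and 0.462, 0.752 and 1.85 CPM in *nol12-4*. It thus lay below the WT range in replicate 1, at its lower edge in replicate 2 and above it in replicate 3. Without *nol12-4* replicate 3 its log2 fold change was -0.80 (SE 0.44, edgeR adjusted p = 0.316).

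CO protein acts in phloem companion cells. The 4 markers of these cells (*SUC2*, *AHA3*, *APL* and *FTIP1*) summed to 184 to 187 CPM in WT and 168 to 215 CPM in *nol12-4*. Of these markers 0 were called by either tool, and edgeR listed 1 lower at an unadjusted p under 0.05. Without replicate 3 edgeR called 0 and DESeq2 called 1 lower. The sum hides differences between the markers. *SUC2* was at 43.7, 44.2 and 47 CPM in WT and 33, 41.2 and 36.3 CPM in *nol12-4*. *FTIP1* was at 17.4, 15.2 and 14.2 CPM against 10.3, 10.9 and 13.1 CPM. At both the genotypes did not overlap, as at 26.1% of all tested genes, while they overlapped at *AHA3* and *APL*. The 5 leaf markers summed to 4872 to 5460 CPM in WT and 6786 to 13192 CPM in *nol12-4*, and the 5 root markers to 650 to 899 and 1021 to 1100 CPM. Leaf and root transcripts were thus both present in every library. edgeR called 0 of the leaf and root markers (4 and 3 higher at an unadjusted p under 0.05). DESeq2 called the root markers *COBL9*, *EXPA7* and *TIP2;3* and the leaf marker *RCA* higher, the latter with 916, 910 and 969 CPM in WT and 1994, 3707 and 1182 CPM in *nol12-4*. Without replicate 3 edgeR called 1 leaf and 0 root markers higher, and DESeq2 called 2 and 3. The leaf sum was highest in *nol12-4* replicates 1 and 2 (9218 and 13192 CPM), the libraries in which the 8 genes stood out, whereas both sums were above the WT range in all 3 *nol12-4* libraries. The leaf markers were uneven, with log2 fold changes from 0.31 (SE 0.25) at *GAPA* to 3.03 (SE 1.11) at *LHCB2.1*. *LHCB2.1* also varied widely within WT, with 23.8, 31.4 and 244 CPM, against 858, 1437 and 152 CPM in *nol12-4*. The part of these tissue markers in the values of the 8 genes was not tested. Flower genes summed to 0.82 to 2.77 CPM over all libraries, and *LFY* had 0 to 12 counts. At such counts DESeq2 called *AP1* lower (7, 17 and 6 counts in WT, 1, 0 and 0 in *nol12-4*) and *AP3* higher (0, 1 and 0 against 7, 10 and 10), and neither passed the filter of edgeR.

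Compared per length of exon, *FKF1* was the most abundant of the 8 transcripts in WT, at 21.7 ± 9.14 CPM per kb. *COL1* (4.84 ± 0.367) and *CDF2* (3.46 ± 0.535) came next, then *CDF5* (2.11 ± 0.607), *CDF3* (1.98 ± 0.703) and *CDF1* (1.52 ± 0.574), and *COL2* (0.73 ± 0.128) and *CO* (0.655 ± 0.164) were lowest, all in CPM per kb. In this order *CDF5*, *CDF3* and *CDF1* did not differ beyond their SDs, nor did *COL2* and *CO*. In *nol12-4* the means ran from *COL1* (21.2 ± 14.9 CPM per kb), *COL2* (14.5 ± 12.2) and *CDF3* (11.1 ± 9.73) down to *CO* (0.173 ± 0.127), with *FKF1* at 5.30 ± 8.45. No neighbours in that order differed beyond their SDs.

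Genes of a family can share reads where their sequence is the same. In a global alignment the coding sequences of *CO*, *COL1* and *COL2* were 79.2 to 80.2% identical, and those of the CDF genes 65.2 (*CDF2* and *CDF5*) to 80.5% (*CDF1* and *CDF3*). These are shares of the positions at which both sequences had a base, with gaps left out. For *CDF1* (897 coding bases) and *CDF3* (1347) there were 882 such positions, so the value leaves out much of *CDF3*. The longest identical run of any pair was 28 bases (*COL1* and *COL2*). *CO* and *COL1*, the adjacent pair, were 80.1% identical in coding sequence and had opposite differences in *nol12-4* replicates 1 and 2.

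The genes most like the mean of the 4 CDF genes, or most like *FKF1*, over the 6 libraries were listed by Pearson correlation of log2 CPM, as a description. No such list was made for *CO*, *COL1* and *COL2*. The libraries shared genotype and preparation and fell into separate groups, so that many genes reached high values. With the mean of *CDF1*, *CDF2*, *CDF3* and *CDF5* the highest were AT1G71480 (an NTF2 family protein, r = 0.9960), *HB-7* (a homeobox protein, 0.9953) and *AVA-P1* (a subunit of the ATPase V0 complex, 0.9922), and 164 of 21697 genes were over 0.95. AT1G71480 had 704, 554 and 557 counts in WT and 1237, 980 and 604 in *nol12-4*. With *FKF1* the highest were AT1G58235 (0.9992), *RIBA2* (riboflavin biosynthesis, 0.9988) and AT4G33980 (0.9984), and 419 genes were over 0.95. AT4G33980 had 2802, 2065 and 4652 counts in WT and 38, 28 and 2363 in *nol12-4*, with replicates 1 and 2 low and replicate 3 close to WT.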

How the data were processed

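RNA was measured in 6 libraries of 14-day-old seedlings, 3 WT and 3 labelled *nol12-4*, described by the authors as biological replicates. The authors depleted rRNA, sequenced stranded read pairs, aligned them to TAIR10 with HISAT2 (version 2.0.4), sorted them with SAMtools and counted them per Araport11 gene and strand with HTSeq (version 0.6.0, minimum alignment quality 0). The deposited values are raw counts per gene, without normalization. Summary lines of HTSeq held 20.6 to 25% of a library and were left out.

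Tests between genotypes used edgeR (version 4.0.16) under R (version 4.3.3), with TMM scaling, filterByExpr, glmQLFit with robust estimation, the quasi-likelihood F test, two-sided, genotype as the only term, and Benjamini-Hochberg adjustment over all tested genes at 0.05. All 8 genes passed the filter. Alternatives were DESeq2 (version 1.42.0, alpha 0.05), limma-voom (limma version 3.58.1), other factors and filters, a replicate block, and leaving out each library. Standard errors are on the log2 scale. Exact Poisson intervals cover counting error only, since PCR copies were not told apart.

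Positions and the 250-base windows come from RefSeq TAIR10.1 (36899 of 37184 identifiers matched). Coding sequences were aligned with Biopython (version 1.88). Genes named are the 8, GI, ZTL, LKP2, AT1G69572, FT, 6 clock genes, and listed genes that edgeR or DESeq2 called. Also named are the 3 genes most alike in pattern to the mean of the CDF genes and the 3 most alike to *FKF1*. Others (*AtNOL12*, *TSF*, *CDF4*, *COL7*, *COL9*, *COL10*, *COL13*, *OBP2*, AT5G15845 and marker genes) fall outside this rule and were named with their values seen. The genes and lists were chosen with earlier results of these data known.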

Additional observations from a re-analysis of the deposited data

How the results depend on the processing

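The number of genes called in all moved most with the tool and with the libraries used. edgeR called 64 with all libraries, 86 with limma-voom, 427 with library size alone, 183 without the filter on low counts and 1 with the replicate block, and DESeq2 called 2274. With 1 library left out, edgeR called 0 to 1639 genes in all, of which 464 without WT replicate 3 and 1639 without *nol12-4* replicate 3, and DESeq2 called 851 to 3567. Where edgeR called 0, it listed 2797 to 3721 genes at an unadjusted p under 0.05. Of the 8 photoperiod genes edgeR called 0, DESeq2 4 and every other setting on all 6 libraries 0. With 1 library left out edgeR called 0 to 8 and DESeq2 0 to 8 of them, with 8 by both without *nol12-4* replicate 3. With WT replicate 1, 2 or 3 left out singly DESeq2 called 2 of them each time, and 867, 1583 and 2753 genes in all. Without *nol12-4* replicate 1 or 2 it called 0 and 1 of them, and 991 and 851 genes in all. Of the partners edgeR called 0 and DESeq2 2. With 1 library left out edgeR called 0 to 2 and DESeq2 0 to 6. Of 128 log2 fold changes of the 8 genes under alternatives, 0 changed sign, 115 kept their side of the threshold, 1 (*FKF1* by DESeq2) had no adjusted p, and 12 were newly past it, 8 of these without *nol12-4* replicate 3 and the others by DESeq2. What moved these counts was not tested.

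The genotypes share replicate numbers. Correlations of the deviations of same-numbered libraries were 0.164, -0.113 and 0.0349, and those of the other pairs ran from -0.241 to 0.2. With 3 libraries per genotype these values cannot decide whether the numbers pair the libraries. The fit with a replicate block called 0 of the 8 genes and 0 partners. Depth limits *CO* most, with 18 to 162 counts per library.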
